A study of Mus musculus with 2 samples.

Results

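Metallothioneins and zinc transporters were examined as a set of 9 genes, Mt1, Mt2, Mt3, Mtf1, Slc30a1, Slc30a2, Slc39a1, Slc39a10 and Slc39a14, out of 44787 gene rows in the deposited table. All 9 were found in the table by symbol. They were picked with their levels in these libraries in view, so every difference below is a description with no test. The libraries were made from hindlimb skeletal muscle of mice on a C57BL/6 background, aged 30 days after birth: 1 from wild-type (WT) mice and 1 from mice labelled SRSF1-MKO. The SR protein SRSF1 is a splicing factor. The labels do not spell out MKO, name no promoter or Cre that drives the deletion, and do not give the number or sex of the animals behind a library. Each group holds 1 library, so no difference has a replicate check, and every interval below covers read counting error alone.

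Metallothioneins are small, cysteine-rich proteins that bind zinc and copper. Mt1 and Mt2 are made in most tissues and are induced by zinc, cadmium, glucocorticoids, cytokines and oxidants, while Mt3 is best known from brain and Mt4 from stratified epithelium. The transcription factor MTF1 senses zinc and binds metal response elements in the promoters of Mt1, Mt2 and the exporter gene Slc30a1. Zinc leaves the cytosol through the Slc30a (ZnT) family and enters it through the Slc39a (ZIP) family. In mouse muscle, Mt1 and Mt2 mRNA are known to be raised in several forms of wasting, and Slc39a14 in that of cancer.

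Levels are FPKM, the authors' fragment or read counts scaled by transcript length and by library total. The totals behind them, recovered from the steps between FPKM values, were 23146640 reads for WT and 21350284 for SRSF1-MKO. The WT library held Srsf1 itself at 13.7 FPKM and the SRSF1-MKO library at 6.70, which gives a ratio of 0.489 (exact binomial 95% interval 0.461 to 0.519). Columns were assigned by the genotype in their names, because the description lines of each sample contradict each other, and each direction below rests on that. For the tissue label, 8 of 8 muscle fibre markers were at 1 FPKM or more in both libraries. So were 8 of 8 endothelial and 8 of 8 fibro-adipogenic markers, and this limit alone does not single out muscle. The fibre markers summed to 77014 FPKM for WT and 38982 for SRSF1-MKO, against 605 and 437 for the fibro-adipogenic and 87.0 and 62.7 for the endothelial markers. The median log2 ratio of SRSF1-MKO over WT, with 1 FPKM added to both, was 0.21 over the 10477 genes that averaged 1 FPKM or more, called measured genes below, and 0.32 over the 4990 that averaged 5 or more. A centred value below has the second median taken off.

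The 250 bases before the annotated start are shown for the metallothionein genes that differed most and for Slc30a1. Slc30a1 is a textbook MTF1 target that differed little. MTF1 is known to bind metal response elements in the promoters of Mt1, Mt2 and Slc30a1. The stretch is set by the RefSeq start, and known elements of these genes may lie outside it. Of the Mt1 matches given below, 2 lie after that start and are not in the stretch shown. The sequences are from RefSeq (GRCm38.p6, plus strand, 5′ to 3′), and capitals mark the core of a metal response element, TGCACNC or TGCGCNC, on either strand. Mt1 is shown from chr8:94178839-94179088, Mt2 from chr8:94172368-94172617, Mt3 from chr8:94152357-94152606 and Slc30a1 from chr1:191906531-191906780.
Mt1: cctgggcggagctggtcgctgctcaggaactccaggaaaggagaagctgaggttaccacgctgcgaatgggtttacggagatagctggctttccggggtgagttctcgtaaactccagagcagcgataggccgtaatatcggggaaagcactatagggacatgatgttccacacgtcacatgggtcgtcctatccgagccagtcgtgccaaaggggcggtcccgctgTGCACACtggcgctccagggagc
Mt2: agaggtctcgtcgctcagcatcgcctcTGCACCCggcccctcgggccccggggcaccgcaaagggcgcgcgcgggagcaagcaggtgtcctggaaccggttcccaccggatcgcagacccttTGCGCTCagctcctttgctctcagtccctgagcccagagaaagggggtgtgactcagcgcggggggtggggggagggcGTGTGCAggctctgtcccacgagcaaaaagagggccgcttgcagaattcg
Mt3: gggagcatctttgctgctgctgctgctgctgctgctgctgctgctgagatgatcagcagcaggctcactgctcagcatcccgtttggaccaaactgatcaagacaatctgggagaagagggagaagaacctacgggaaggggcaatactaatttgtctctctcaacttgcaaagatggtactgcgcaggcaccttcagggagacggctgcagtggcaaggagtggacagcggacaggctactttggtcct
Slc30a1: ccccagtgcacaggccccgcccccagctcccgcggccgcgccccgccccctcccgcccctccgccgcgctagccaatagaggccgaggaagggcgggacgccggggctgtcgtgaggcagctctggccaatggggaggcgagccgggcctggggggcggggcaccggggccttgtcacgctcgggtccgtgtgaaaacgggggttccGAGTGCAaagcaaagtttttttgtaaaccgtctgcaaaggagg

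A window of 300 bases, from 250 before to 50 after the start, was searched for both cores on both strands, and no match in the 9 genes overlaps another. Of the 9 genes, 8 had a window, and 5 of these held at least 1 match, against 25.7% of all 32851 RefSeq windows. The Mt2 window held 4 matches, a number reached by 0.517% of all windows. In Mt2, 3 of the matches lie before the start, at -223, -128 and -50, and the fourth begins 4 bases after it. This split depends on the annotation. RefSeq starts Mt2 at 94172618 and GENCODE M21 at 94172664, and the fourth match lies before the GENCODE start. The Mt1 window held 3 matches, reached by 1.97% of windows: TGCACAC at -23, TGCACTC beginning 2 bases after the start and TGCGCTC beginning 20 bases after it. Mt3 held 1 match, beginning 27 bases after the start and therefore outside the stretch shown. In the rest of the family, Slc30a4 and Slc30a10 also held 3 each; the WT and SRSF1-MKO values were 3.17 and 4.79 FPKM for Slc30a4 and 0 and 1 read for Slc30a10. Slc30a1 and Slc30a2 held 2 matches each, a number reached by 7.11% of windows. Slc39a1, Mtf1 and both windows of Slc39a10 held none. These are matches of letters in a short window, and binding was not measured.

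**Figure D1:**
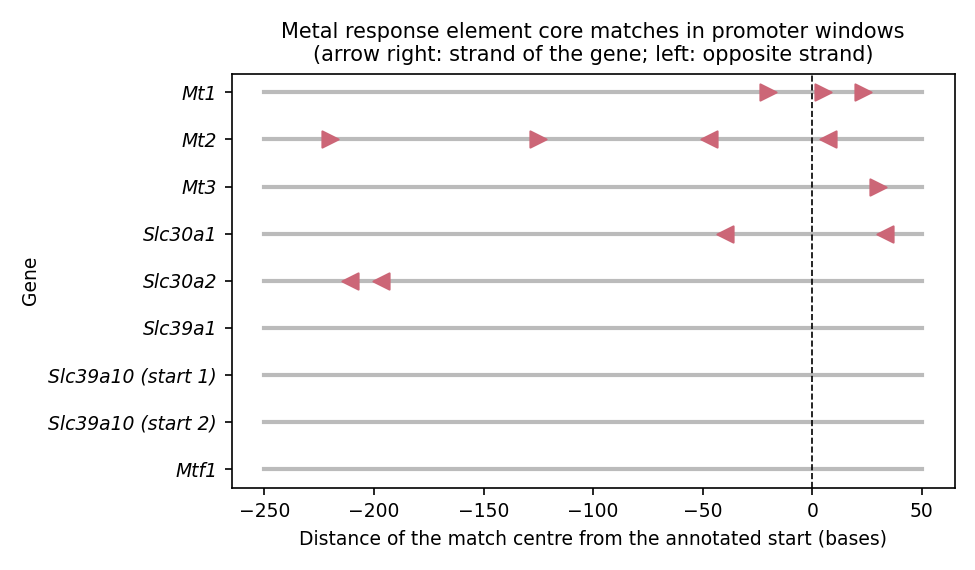
Positions of metal response element core matches in the promoter windows of 8 genes, with the distance from the annotated start in bases on the horizontal axis and 1 line per window; arrows give the strand. Mt2 carries 4 matches and Mt1 carries 3, and the lines of Slc39a1, Slc39a10 and Mtf1 are empty.

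The metallothionein mRNAs were the members with the largest differences. Mt1 (ENSMUSG00000031765.8, mm10 chromosome 8, 94179089 to 94180327, plus strand, a protein-coding gene of 3 exons) read 30.3 FPKM in the WT library against 553 FPKM in the SRSF1-MKO library. This difference of 18.2-fold (95% counting interval 16.7 to 19.95) rests on 533 and 8972 reads. Mt1 stood at rank 1045 among all genes of the WT library and at rank 76 in the SRSF1-MKO library.

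Mt2 (ENSMUSG00000031762.7, chromosome 8, 94172618 to 94173567) read 2.56 FPKM in the WT library against 115 FPKM in the SRSF1-MKO library. The ratio of 45.0 had an interval of 31.9 to 65.6, and the width comes from the 33 reads in WT, beside 1369 in SRSF1-MKO. As log2(FPKM + 1) values, Mt2 differed by 5.03 and Mt1 by 4.15, which placed them at ranks 11 and 23 of 10477 genes ordered by this difference.

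Mt3 (ENSMUSG00000031760.9, chromosome 8, 94152607 to 94154148), the isoform best known from brain, read 0.723 FPKM in the WT library against 16.9 FPKM in the SRSF1-MKO library. Only 9 reads stood behind the WT value, against 194 in SRSF1-MKO, and the ratio of 23.4 had an interval of 12.1 to 51.9. Its log2 difference of 3.38 was at rank 40. Mt4, the remaining gene of the cluster, had 0 reads in WT and 1 read in SRSF1-MKO, under the level of 0.331 FPKM that 3 reads would give in WT.

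Mt1 was the most abundant of these mRNAs in both libraries, and its share of the summed Mt1, Mt2 and Mt3 level was smaller in SRSF1-MKO. Per length, Mt1 stood 11.8-fold above Mt2 in WT (interval 8.31 to 17.3) and 4.79-fold above it in SRSF1-MKO (4.53 to 5.08). The sum of the metallothionein levels was 33.6 FPKM in the WT library and 685 FPKM in the other, 20.4-fold higher, or 0.00726% and 0.119% of the summed FPKM of each library. Of that sum, Mt1 made up 90.2% in WT and 80.7% in SRSF1-MKO, Mt2 7.63% and 16.8%, and Mt3 2.15% and 2.47%. The longest identical stretch between annotated transcripts was 20 bases for Mt1 and Mt2, 27 for Mt1 and Mt3 and 20 for Mt2 and Mt3. The sources used here give no read length.

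The genes around the metallothionein cluster did not share these ratios. Mt4, Mt3, Mt2 and Mt1 lie in this order on the plus strand within 43.1 kb, with 5.52 kb between Mt2 and Mt1. On the Mt4 side, the next mRNA gene in the table was Bbs2 at a distance of 37.8 kb, with 1.03 FPKM in the WT library and 0.906 in the other. On the Mt1 side, the next was Nup93 at 88.3 kb, with 2.71 and 3.31 FPKM. Farther out, Ogfod1 was at 3.12 and 2.44 FPKM, Nudt21 at 2.88 and 5.27 FPKM, and Herpud1, a gene of endoplasmic reticulum stress, at 23.8 and 51.1 FPKM.

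**Figure D2:**
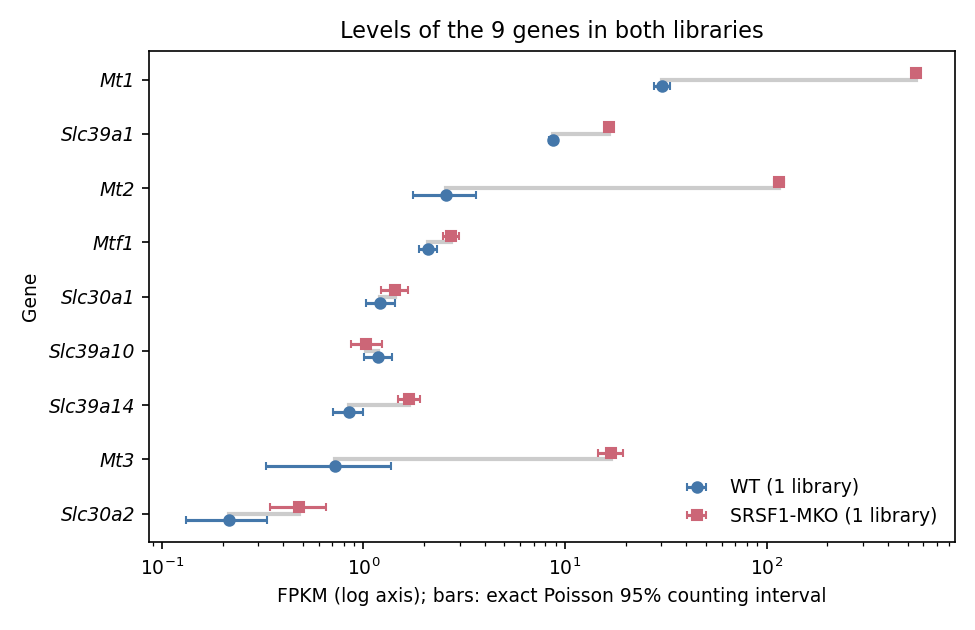
FPKM of the 9 genes (log axis) in the WT library (circles) and the SRSF1-MKO library (squares), 1 library each, with exact Poisson 95% counting intervals as bars. Mt1 goes from 30.3 to 553 FPKM, Mt2 from 2.56 to 115 and Mt3 from 0.723 to 16.9, while the marks of Slc30a1 and Slc39a10 lie close together.

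The order of the 9 levels differed between the libraries mainly through Mt2 and Mt3. In WT the order from the top was Mt1, Slc39a1, Mt2, Mtf1, Slc30a1, Slc39a10, Slc39a14, Mt3 and Slc30a2. In SRSF1-MKO it was Mt1, Mt2, Mt3, Slc39a1, Mtf1, Slc39a14, Slc30a1, Slc39a10 and Slc30a2. The counting intervals of neighbours overlapped in WT for Mt2 and Mtf1, for Slc30a1 and Slc39a10, for Slc39a14 and Mt3, and for Mt3 and Slc30a2. In SRSF1-MKO they overlapped for Mt3 and Slc39a1, for Slc39a14 and Slc30a1, and for Slc30a1 and Slc39a10. The place of Slc39a1 depends on the transcript length behind its FPKM, which exceeds the gene's span in the table. Set to that span, its levels would be 15.2 and 28.8 FPKM, the second of them, for SRSF1-MKO, above that of Mt3. The span includes introns, and the GENCODE exons of Slc39a1 cover 2364 bases, so its levels could stand higher still. Its place below Mt1 in WT is therefore not secure.

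Mtf1, which encodes the zinc-sensing factor, differed far less than Mt1 and Mt2. Mtf1 (chromosome 4, 124802549 to 124849800, plus strand) read 2.08 FPKM in the WT library against 2.73 FPKM in the SRSF1-MKO library, from 368 and 444 reads. The ratio was 1.31 with a counting interval of 1.14 to 1.51, and the centred log2 ratio was -0.05, so its sign depends on the scaling. Per length, Mt1 stood 14.5-fold above Mtf1 in WT and 203-fold above it in SRSF1-MKO.

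Among MTF1 and genes known as its targets in mouse, 9 of 10 were measured, and Mt1, Mt2 and Gclc were the 3 with a level at least 1.5-fold higher in the SRSF1-MKO library, against 23.7% of all measured genes. On the deposited scale 0 were 1.5-fold lower, against 8.13% of measured genes. After centring 1 was, against 18.1%: Selenow, a selenoprotein gene listed as Sepw1, at 251 and 204 FPKM. Gclc, the catalytic subunit of glutamate-cysteine ligase in glutathione synthesis, was at 1.58 and 5.41 FPKM, a ratio of 3.43 (2.80 to 4.23). Ndrg1 was at 3.60 and 5.32 FPKM (ratio 1.48, 1.25 to 1.75). The median log2 ratio of the list was 0.27, beside 0.21 for all measured genes. Mtf1, Mt1, Mt2, Slc30a1 and Slc39a10 on this list were chosen on this contrast, so its counts and median describe them and support nothing. Apart from these, Gclc was the 1 measured gene of the list that was higher.

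The exporter Slc30a1 (ZnT1; chromosome 1, 191906781 to 191913247, plus strand), which moves zinc out across the plasma membrane, read 1.21 FPKM in the WT library against 1.43 FPKM in the SRSF1-MKO library. Its ratio of 1.18 had a counting interval of 0.937 to 1.49, which includes 1, from 147 and 160 reads, and its centred log2 ratio was -0.19. Slc30a2 (ZnT2; chromosome 4, 134343054 to 134349324), which loads zinc into vesicles and is best known from the mammary gland, was the lowest of the 9 in both libraries, at 0.216 and 0.480 FPKM. Only 20 and 41 reads stood behind these values, and the ratio was 2.22 with an interval of 1.27 to 4.004. Its mean is under 1 FPKM, so it is left out of the counts below.

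The importer Slc39a1 (ZIP1; chromosome 3, 90248217 to 90253613, plus strand), a plasma membrane zinc importer found in most tissues, read 8.75 FPKM in the WT library against 16.6 FPKM in the SRSF1-MKO library. The ratio was 1.90 with an interval of 1.79 to 2.01, from 1898 and 3321 reads, and the centred log2 ratio was 0.53. The length that the FPKM of Slc39a1 implies, 9376 bases, is above the gene's span of 5397 bases in the same table, so its level against other genes may be understated; its ratio between libraries does not depend on the length.

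Slc39a14 (ZIP14; chromosome 14, 70303467 to 70348433, minus strand), which also carries iron and manganese and is known as an interleukin 6 target in mouse liver, read 0.845 FPKM in the WT library against 1.69 FPKM in the SRSF1-MKO library. Its ratio was 2.001 with an interval of 1.62 to 2.48, from 136 and 251 reads. As log2(FPKM + 1) its difference was 0.54, under the 1.5-fold limit of 0.58, because 1 FPKM is added to low values. Slc39a10 (ZIP10; chromosome 1, 46807544 to 46925775, minus strand), an importer that MTF1 represses in mouse cells, was at 1.19 and 1.04 FPKM, from 159 and 128 reads. It was the 1 member with a lower value in SRSF1-MKO, and the interval of its ratio of 0.873, 0.686 to 1.11, included 1.

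Of the 9 genes, 8 were measured, that is, averaged 1 FPKM or more. By the 1.5-fold limit on log2(FPKM + 1) values, 4 had the higher level in the SRSF1-MKO library (Mt1, Mt2, Mt3 and Slc39a1) and 0 were lower, while 23.7% of all 10477 measured genes were higher and 8.13% lower. After centring, 3 of the 8 were higher, the metallothioneins, and 0 were lower, against 11.4% and 18.1% of all measured genes. The members were chosen on this contrast, so the counts describe them and support nothing. With 1 library a group, a count is of genes past a fold and not of tested differences.

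**Figure D3:**
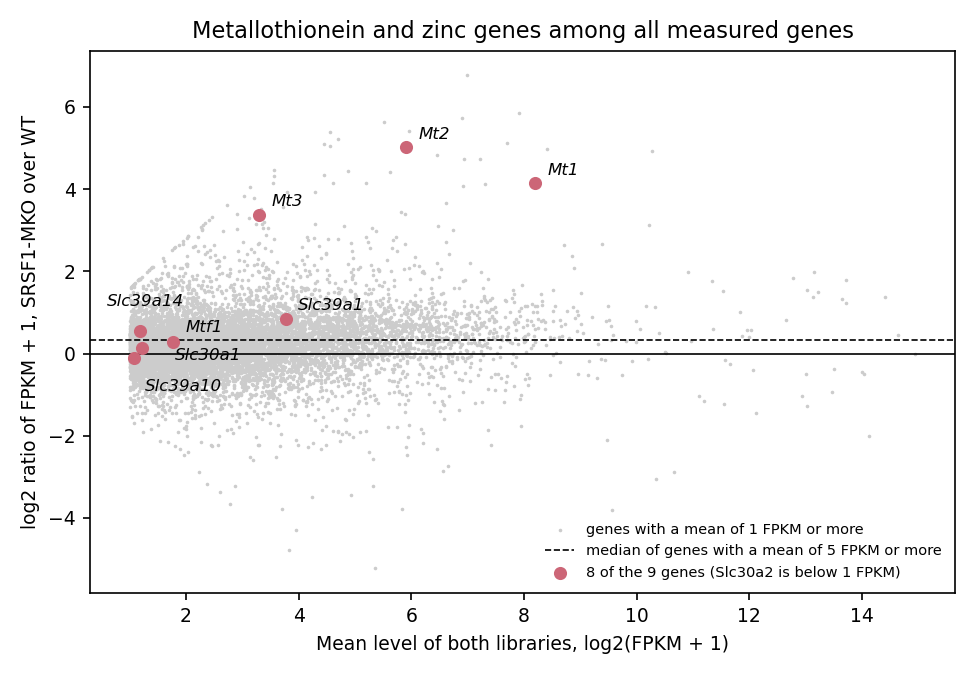
Log2 ratio of SRSF1-MKO over WT against the mean level of both libraries for 10477 genes (grey points), with 8 of the 9 genes in colour and the median of 0.32 over genes averaging 5 FPKM or more as a dashed line. Mt2, Mt1 and Mt3 lie at 5.03, 4.15 and 3.38, and Mtf1, Slc30a1, Slc39a10 and Slc39a14 lie between -0.10 and 0.54.

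Across the whole zinc transporter families, the highest ratio of a transporter gene above 0 in both libraries was 2.22, that of Slc30a2. Of the 10 Slc30a genes, 5 were measured. On the log2(FPKM + 1) scale 0 were at least 1.5-fold higher and 1, Slc30a9, was lower, with the same counts after centring. Among all measured genes, 23.7% were higher and 8.13% lower, and 11.4% and 18.1% after centring. Slc30a9, a transporter of the mitochondrion, was the most abundant exporter in WT at 23.4 FPKM and stood at 10.7 FPKM in the other library, where its ratio of 0.459 had an interval of 0.421 to 0.499. The summed level of the Slc30a genes, of which Slc30a9 made up the most in WT, was lower, 32.1 FPKM for WT and 22.3 for SRSF1-MKO. Slc30a9 alone among the 5 measured had the lower FPKM in SRSF1-MKO, so the sum does not describe the family. The median log2 ratio of the 5 was 0.14, beside 0.21 for all measured genes. Slc30a4 was at 3.17 and 4.79 FPKM, a plain ratio of 1.51 (1.26 to 1.82) that fell under the limit once 1 FPKM was added. Slc30a5 and Slc30a6, which work together in the secretory pathway, were at 2.58 and 3.15 FPKM and at 0.995 and 1.14 FPKM. Slc30a7 was at 0.489 and 0.462 FPKM. Slc30a3 and Slc30a10 had 1 read each in SRSF1-MKO and none in WT, and Slc30a8 was listed at 0 in both.

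Of the 14 Slc39a genes, 7 were measured. On the log2(FPKM + 1) scale Slc39a1 was the 1 that was at least 1.5-fold higher, against 23.7% of all measured genes. On that scale 0 were lower, against 8.13%, and after centring 0 were higher and 0 lower. By the plain FPKM ratio Slc39a14, at 2.001, was past 1.5-fold as well. Slc39a7 (ZIP7), which releases zinc from the endoplasmic reticulum, read 12.3 FPKM in the WT library against 16.3 FPKM in the other (ratio 1.33, 1.20 to 1.47). Slc39a13, an importer of secretory compartments, was at 3.57 and 4.32 FPKM, and Slc39a6 and Slc39a9 were at 1.21 and 1.57 and at 1.19 and 1.22 FPKM. Among the genes under a mean of 1 FPKM, Slc39a11 was at 0.452 and 0.965 FPKM, from 33 and 65 reads, and Slc39a2 at 0.555 and 0.241 FPKM, from 30 and 12 reads. Slc39a3 was at 0.803 and 0.823 FPKM, Slc39a8 at 0.208 and 0.172, and Slc39a12 at 0.161 and 0.0525. Slc39a4 had 1 read in SRSF1-MKO and none in WT, and Slc39a5 was listed at 0 in both. The summed level of the Slc39a genes was 31.2 FPKM for WT and 45.0 for SRSF1-MKO.

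**Figure D4:**
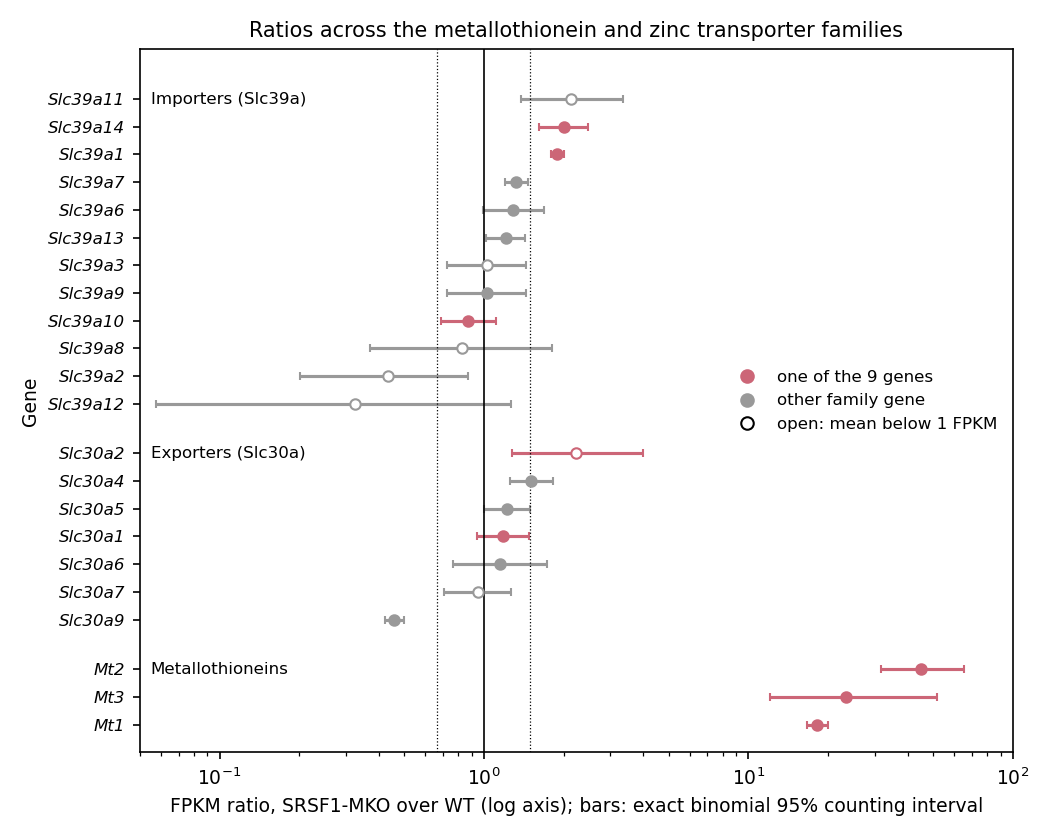
FPKM ratio of SRSF1-MKO over WT (log axis) for each metallothionein, Slc30a and Slc39a gene above 0 in both libraries, with exact binomial 95% counting intervals as bars, open circles for genes with a mean under 1 FPKM, and dotted lines at 1.5-fold either way. The metallothioneins lie between 18.2 and 45.0, and Slc30a9 at 0.459 is the measured gene below the lower line. Slc39a14 at 2.001 and Slc30a4 at 1.51 lie above the upper line, but are within 1.5-fold on the log2(FPKM + 1) scale of the counts.

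Known inducers of Mt1 and Mt2 other than zinc were followed through lists of genes they are known to induce, 1 of which holds Mt2 itself. Like the other gene lists, these were chosen with earlier results of these data known, so their counts and medians describe them and support nothing. Genes were counted at 1.5-fold on the log2(FPKM + 1) scale. Among all measured genes 23.7% were higher and 8.13% lower, or 11.4% and 18.1% after centring. Of 9 measured antioxidant genes induced by the transcription factor NRF2, 7 were higher and 0 lower, and their median log2 ratio was 0.80; after centring 3 were higher. Srxn1, sulfiredoxin, was at 2.73 and 15.6 FPKM (ratio 5.70, 4.54 to 7.23), and Nqo1, a quinone reductase, at 1.78 and 9.54 FPKM (ratio 5.35, 3.10 to 9.82). Gsr, glutathione reductase, was at 4.33 and 8.59 FPKM. Gclc stands on this list as well as on that of MTF1.

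Of 10 measured glucocorticoid-induced genes, Mt2 among them, 6 were higher and 1 lower, and their median log2 ratio was 0.84; after centring the counts were 5 and 2. Without Mt2, which was chosen on this contrast, 5 of 9 were higher and 1 lower, and the median log2 ratio was 0.69. After centring the counts without Mt2 were 4 and 2, against 11.4% and 18.1% of all measured genes. Fkbp5, a chaperone partner of the glucocorticoid receptor, was at 3.14 and 15.9 FPKM (ratio 5.07, 4.22 to 6.12), and the transcription factor Zbtb16 at 8.97 and 24.5 FPKM (ratio 2.73, 2.58 to 2.89). Dusp1, a MAP kinase phosphatase, was the 1 lower gene, at 73.9 and 20.7 FPKM, and Sgk1, at 31.4 and 23.8 FPKM, joined it after centring.

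Of 9 measured genes induced by interleukin 6 and STAT3, 3 were higher and 3 lower, and their median log2 ratio was 0.35. After centring the counts were 2 and 3. Slc39a14, which was chosen on this contrast, is on the list and was within 1.5-fold on the log2(FPKM + 1) scale, though its plain ratio was 2.001. The higher genes were Lcn2 at 0.152 and 2.58 FPKM, from 3 and 47 reads, Pim1 at 1.20 and 4.26 FPKM, and Osmr, a receptor of the interleukin 6 family, at 1.06 and 2.59 FPKM. The lower genes were Fos at 105 and 6.74 FPKM, Socs3, the feedback inhibitor of STAT3, at 5.05 and 2.63 FPKM, and Junb at 9.58 and 5.88 FPKM.

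Copper, which metallothioneins also bind, was followed through 10 genes of its handling, of which 8 were measured. Of these, 1 was higher, against 23.7% of all measured genes, and 0 lower, against 8.13%, and their median log2 ratio was 0.26. The higher gene was Sco1, which delivers copper to cytochrome c oxidase, at 1.45 and 3.24 FPKM; after centring it too was within 1.5-fold. Cox17, a mitochondrial copper chaperone, was at 93.1 and 113.7 FPKM, Atox1, a cytosolic copper chaperone, at 3.55 and 5.13 FPKM, and the transporter Slc31a2 at 2.42 and 3.11 FPKM.

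**Figure D5:**
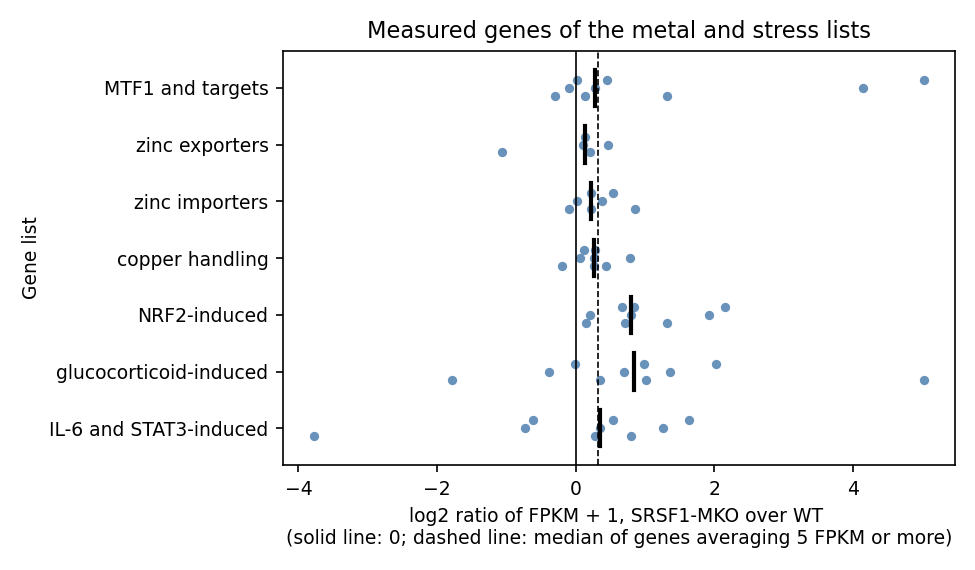
Log2 ratio of SRSF1-MKO over WT for each measured gene (points) of 7 gene lists, with the list median as a vertical bar, 0 as a solid line and the median of 0.32 over genes averaging 5 FPKM or more as a dashed line. The medians of the NRF2-induced and glucocorticoid-induced lists are 0.80 and 0.84, the second of them 0.69 without Mt2. Those of the zinc exporters, zinc importers and copper genes lie between 0.14 and 0.26.

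Markers of several cell types differed between the same libraries, and in whole muscle a change in the number of cells of a type and in RNA per cell cannot be told apart. Their counts at 1.5-fold stand beside 23.7% higher and 8.13% lower among all measured genes, or 11.4% and 18.1% after centring. Of 8 measured muscle fibre markers, 2 were higher and 4 lower (2 and 5 after centring), and their summed level was 77014 FPKM for WT and 38982 for SRSF1-MKO. The markers did not move together, and the sum is weighted to the most abundant of them. Myh4, at 28777 and 7176 FPKM, Tnnt3, Pvalb and Ckm were lower. Mb, at 242 and 2135 FPKM, and Des, at 1532 and 4385, were higher. Before centring, Acta1 and Ttn were within 1.5-fold. Of 9 measured macrophage markers, 6 were higher and 0 lower (4 and 0 after centring); the list's summed level was 42.3 FPKM for WT and 104.7 for SRSF1-MKO, and 0 of its 10 genes were at 0. Of 5 measured Schwann cell markers, 3 were higher and 0 lower (2 and 0 after centring), and all 8 listed genes summed to 47.5 and 92.2 FPKM. The summed level of Mt1, Mt2 and Mt3 was 20.4-fold higher, beside 2.48-fold for the macrophage list and 1.94-fold for the Schwann cell list. Ratios of single macrophage markers ran from 0.826 for Mrc1 to 10.6 for Cd68. A ratio of summed FPKM does not measure a change in cell number.

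The remaining marker lists had no gene that was 1.5-fold higher on either scale. Of 8 endothelial markers, 2 were lower, and 6 after centring, with sums of 87.0 and 62.7 FPKM. Of 8 fibro-adipogenic markers, 2 were lower, and 3 after centring, with sums of 605 and 437 FPKM. Of 5 measured erythroid markers, 0 were lower, and 3 after centring, and all 7 listed genes summed to 384 and 347 FPKM. Of 7 measured adipocyte markers, 5 were lower on both scales, while the sum of all 8 listed genes was 331 FPKM for WT and 396 for SRSF1-MKO. That sum is mostly Fabp4, a fatty acid binding protein also made by endothelial cells and macrophages, at 246 and 334 FPKM; the other 7 listed genes summed to 85.4 and 62.7 FPKM. The part of these cells in the metallothionein levels was not tested.

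The genes whose log2 ratio lay nearest to that of Mt1, among named mRNA genes that averaged 5 FPKM or more, were Myl6b, Kcne1l, Pdk4 and Ankrd1. Beside the 18.2-fold of Mt1, Myl6b, a myosin light chain, was at 45.0 FPKM in SRSF1-MKO (28.1-fold). Kcne1l, a potassium channel subunit, was at 21.2 FPKM in that library (88.5-fold, from 8 reads in WT). Pdk4, a kinase that inhibits pyruvate dehydrogenase, was at 299 FPKM there (18.3-fold), and Ankrd1, a stretch-related ankyrin repeat protein, at 228 FPKM (18.0-fold), both close to Mt1 in the plain ratio. The nearest to Mt2 were the slow troponins Tnnc1 and Tnni1, the Z-disc protein gene Myoz2 and the LIM protein gene Fhl1. Tnnc1 and Tnni1 had 6 and 7 reads in WT and plain ratios of 121 and 176, beside 45.0 for Mt2. The plain ratios of Myoz2 and Fhl1 were 38.1 and 32.8. For genes this low in WT, such as Tnnc1, Tnni1 and Kcne1l, nearness depends on the added 1 FPKM. Likeness here is the distance of the log2(FPKM + 1) ratio between 1 WT and 1 SRSF1-MKO library, so it matches 1 difference and no pattern over samples.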

How the data were processed

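RNA was measured in 1 WT and 1 SRSF1-MKO library. The authors deposited 1 table of FPKM values with a column per genotype, not log-transformed; its name and values give the unit. Bowtie and mm10 appear in the submitters' processing notes. Aligner version, annotation, counting and strandedness: not given in the sources used here. In the table, 1 line had been emptied and is not analysed here.

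The members and gene lists were chosen with earlier results of these data known. Ratios of deposited FPKM between libraries were fractions of whole numbers times 1.08 (what 1 read is worth in the SRSF1-MKO column, relative to WT) in 97.2% of 19042 genes (relative tolerance 5e-14), against 0.00525% with the constant changed by about 3 parts in 100000. Genes whose span in the table equals their GENCODE M21 exon union gave the WT total, the commonest value in 54 of 105 such genes. Reads per gene are the smallest whole numbers that also give a whole transcript length, so they may be a fraction of the true number and the interval then too wide. Intervals are exact binomial (Clopper-Pearson) for ratios and exact Poisson for levels, and cover counting error only. Read recovery was tested on simulated data.

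Ratios are log2((SRSF1-MKO FPKM + 1)/(WT FPKM + 1)); genes averaging 1 FPKM or more were counted at 1.5-fold. With 1 library per group no test was made. Named are the 9 genes, their families, up to 4 genes of each other list with the largest absolute log2 ratio, genes of counts of 5 or fewer (chosen after their values were seen), the 4 nearest in ratio to Mt1 and to Mt2, and the neighbours of the metallothionein cluster by position, a check added after the data were seen. Of the marker lists summed levels and counts are given, with the fibre markers, Mrc1, Cd68 and Fabp4 named after their values were seen. Promoters came from RefSeq (GRCm38.p6). Python 3.11.15, numpy 2.4.6, scipy 1.17.1 and pandas 2.3.3 were used. Alternatives were pseudocounts of 0.1 and 5 FPKM, other scalings, filters and a 2-fold threshold.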

Additional observations from a re-analysis of the deposited data

How the results depend on the processing

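The count of 4 members at least 1.5-fold higher stayed between 3 and 5 under the 8 alternatives tried (pseudocount, scaling, filter and fold), and the count lower stayed at 0. Of all metallothionein, Slc30a and Slc39a genes and Mtf1, 16 were measured, and 4 were higher and 1 lower. Among all measured genes, 23.7% were higher and 8.13% lower. The 4 higher genes are members, and of 8 measured genes outside the 9, 0 were higher on the log2(FPKM + 1) scale. Under the alternatives the family counts stayed between 3 and 5 and at 1. The log2 ratio of Mt1 ranged from 3.82 to 4.19, of Mt2 from 3.99 to 5.44 and of Mt3 from 1.94 to 4.37, the lowest Mt2 and Mt3 values with a pseudocount of 5 FPKM. With the all-gene median set to 0, the sign turned for Mtf1 (-0.049), Slc30a1 (-0.19) and Slc30a2 (-0.038), and with columns scaled to a sum of 1000000 (TPM) for Slc30a1 (-0.053); the shift of 0.32 in that median, or of 0.31 in the summed FPKM, is larger than these ratios. Without mitochondrial genes the summed FPKM of the libraries differed by a factor of 0.998. No paired analysis was possible because each group holds 1 library, and no library could be left out. Depth limits Mt3, Mt4 and Slc30a2, which had between 0 and 20 reads in WT.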
